A study of Laetiporus sulphureus with 6 samples.

Results

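The GH13 and GH31 glycoside hydrolases of the brown-rot basidiomycete *Laetiporus sulphureus* ATCC 52600 are described here, a set of 9 genes among the 10015 genes of the deposited tables. The 7 GH13 genes are all those that the study's gene table lists under this family, with any subfamily number, and each of them was measured. The other 2 genes are the GH31 α-glucosidase g3209 and the GH31 α-xylosidase g53. They were taken from 4 measured GH31 genes, and both stand in the study's own list of genes called on these libraries, so their change is given as a description. RNA came from 3 cultures of pre-inoculum mycelium (T0), which had been grown from 15 agar discs (8 mm) in shaken liquid medium (180 rpm, 30 °C) over 7 days. The other 3 cultures (BIN) were of such mycelium, filtered, washed and kept over 24 h with 1 g of in natura sugarcane bagasse in 100 mL of a mineral salts medium. All cultures were of this one strain and no gene was altered. The liquid medium of the pre-inoculum is not described further in the sources used here, and no culture moved to the mineral medium without bagasse was analysed here. The change of medium, the time and the bagasse therefore cannot be told apart.

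Enzymes of family GH13 cut or rebuild the α-1,4 and α-1,6 bonds of starch and glycogen. α-Amylases cut inside the chains, branching enzymes move a cut piece to make a new α-1,6 branch, and debranching enzymes take branches off so that the chains can be degraded further. Family GH31 holds α-glucosidases, which release single glucose units from chain ends, and α-xylosidases, which take xylose from the side chains of xyloglucan fragments. Fungi keep glycogen as a reserve inside their cells, and many also secrete amylases and α-glucosidases that act on starch outside them.

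The libraries held 9541028 to 15331728 counts over the 10015 genes, and the lowest count of any gene in any library was 10. Correlations of log2 counts per 1000000 counts (CPM) lay between 0.979 and 0.992 within T0 and between 0.993 and 0.995 within BIN. Levels of a gene are given as CPM scaled by the trimmed mean of M-values (TMM), called normalized CPM here, and levels are compared between genes only as TPM, where each library sums to 1000000 after counts were divided by gene length. A gene was called higher or lower in BIN at a Benjamini-Hochberg adjusted p of at most 0.05 over all genes in edgeR's quasi-likelihood test, when its log2 fold change was also 1 or more in size. In bulk RNA, fewer cells expressing a gene and less of its RNA in each cell cannot be told apart. The design text of the series calls the cultures biological replicates. A permutation of 3 against 3 libraries cannot give a two-sided p under 0.1, so that the p-values come from the model over all genes.

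Of the 7 GH13 genes, which were taken by annotation, 4 were called higher in BIN, 1 was called lower and 2 were not called. The family was chosen with earlier results of these data known, so its count and median, given beside those of all genes, are a description. Over all genes 25.9% were called, 11.3% higher and 14.5% lower. With the GH31 genes g3209 and g53, whose calls were already known from the study's list and are not to be read against these shares, 6 of the 9 genes were higher and 1 was lower. The median log2 fold change of the 7 GH13 genes was 1.36, and that of all genes 0.00. That of the 9 genes was 1.72, but it includes g3209 and g53 and is likewise not to be read against all genes. The groups did not overlap for any of the 9 genes, with 8 above T0 in every BIN library and 1 below, but this held for 75.6% of all genes and is no mark of the family. The strongest rises were those of the α-amylase g10027 and the α-glucosidase g3209, which took ranks 15 and 33 from the top among the 10015 log2 fold changes. The single fall was that of another α-amylase, g10029, whose gene number differs from that of g10027 by only 2.

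**Figure D1:**
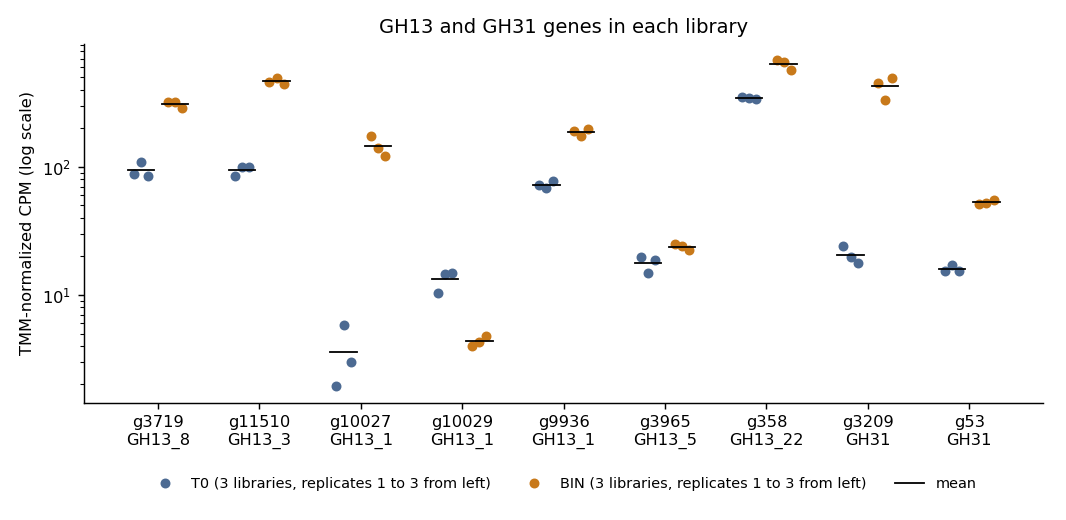
Level of each GH13 and GH31 gene in normalized CPM on a log axis, with 1 point for each of 3 T0 and 3 BIN libraries and a line at the mean of each group. The BIN points lie above the T0 points for 8 genes and below them for g10029, and the T0 points of g10027 are the most scattered, from 1.94 to 5.85.

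The GH13 genes whose annotation points to glycogen branches, g3719 and g11510, were both higher in BIN, but for each the listed domain and the description disagree, and their activities are not settled by the sources used here. g3719 carries the domain GH13_8, the subfamily of eukaryotic branching enzymes, although the study describes it as an α-amylase. Its levels were 87.7, 109.5 and 84.7 normalized CPM in T0 replicates 1 to 3 and 322, 319 and 290.0 in BIN replicates 1 to 3. Every BIN library was thus more than 2 times above the highest T0 library, which was replicate 2. The log2 fold change was 1.72 with a 95% interval of 1.47 to 1.98 (SE 0.11, edgeR adjusted p = 1.34e-06). g11510 is listed as GH13_3 and described as an amylo-α-1,6-glucosidase, the activity that removes the last glucose of a glycogen branch, which is not the activity its listed domain stands for. It had 85.4, 99.95 and 99.6 normalized CPM in T0 and 457, 494 and 443.5 in BIN. The libraries of each group lay close together, and the rise was 2.29 on the log2 scale with an interval of 2.06 to 2.52 (SE 0.10, edgeR adjusted p = 1.29e-07). With a trend on gene length removed from each library it was 1.62, and g11510, whose coding length is 4809 bases, stayed called.

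Within a library, the ratio of 2 genes does not depend on a scaling factor of that library, although it does depend on a trend with gene length. The TPM of g11510 was 0.414, 0.389 and 0.501 times that of g3719 in T0 and 0.604, 0.658 and 0.651 times in BIN. g11510 thus had a lower TPM than g3719 in all 6 libraries, and the ratio was higher in each BIN library than in any T0 library. The size of this shift depends on gene length. With the length trend removed, the log2 fold changes were 1.62 for g11510 and 1.44 for g3719, against 2.29 and 1.72 in the main fit. A pair of genes outside the set belongs to families that act on the chains of glycogen. The GT3 glycogen synthase g11550, which lengthens the chains, had 207, 223.5 and 212 normalized CPM in T0 and 398, 393 and 365 in BIN, a log2 fold change of 0.85 (SE 0.09). The GT35 gene g6476, of the family of glycogen phosphorylases, which shorten the chains, had 463, 434 and 453 in T0 and 736, 755 and 796 in BIN, a log2 fold change of 0.76 (SE 0.10). Their BIN libraries lay above all T0 libraries, and neither reached the fold threshold (edgeR adjusted p = 2.16e-05 and 8.65e-05). This depended on the scale, since on log2(TPM + 1) values g11550 was at 1.27 and g6476 at 1.19 and both were called higher, while after removal of the length trend they were at 0.51 and 0.09. The ratio of g6476 to g11550 was 0.961 ± 0.0679 in T0 and 0.906 ± 0.0800 in BIN (SD, n = 3) and overlapped between the groups. The ratio of g3719 to g11550 went from 0.471 ± 0.0509 to 0.868 ± 0.0101, and that of g11510 to g6476 from 0.212 ± 0.0241 to 0.614 ± 0.0497 (SD, n = 3), without overlap in either case.

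The 3 α-amylase genes with the domain GH13_1 went different ways. g10027 was the least abundant of all 9 genes in each T0 library, with 1.94, 5.85 and 2.98 normalized CPM, and reached 175, 139.8 and 121 in BIN. The T0 values rest on 17, 83 and 43 counts, and replicate 2 stood well above the others, so that the highest T0 TPM was 3.52 times the lowest. The lowest BIN library was still far above the highest T0 library. The log2 fold change was 5.27, or 38.7-fold, with a 95% interval of 4.48 to 6.07 (SE 0.33, edgeR adjusted p = 1.02e-05), and leaving out any 1 library gave values from 5.03 to 5.81. In TPM the gene moved from the 2.31 percentile of all genes in T0 to the 81.5 percentile in BIN.

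g10029 moved in the opposite direction. Its levels were 10.4, 14.6 and 14.8 normalized CPM in T0 and 3.97, 4.26 and 4.78 in BIN, from 91 to 213 counts and from 48 to 66 counts. Each BIN library was below the lowest T0 library, which was replicate 1. The log2 fold change was -1.62 with an interval of -2.01 to -1.23 (SE 0.17, edgeR adjusted p = 3.1e-05). On log2(TPM + 1) values it was -0.95 and no longer called, a scale on which the median of all genes stood at 0.40 and on which the added 1 is large beside the 2.98 TPM of this gene in BIN. The ratio of g10027 to g10029 in TPM was 0.179, 0.384 and 0.194 in T0 and 42.2, 31.5 and 24.3 in BIN. g10029 was therefore the more abundant of the pair in all T0 libraries, and g10027 in all BIN libraries. Among the 7 called genes of the set, the study marks a signal peptide, the leader of secreted proteins, for g10029 and g3209 and for no other. How the counting treated reads that match more than one gene is not given in the sources used here, so values of genes with similar sequences are uncertain in that respect.

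The remaining GH13_1 gene, g9936, had 72.1, 67.95 and 77.9 normalized CPM in T0 and 189.6, 173 and 196 in BIN, so that the lowest BIN library was more than 2 times the highest T0 library. Its rise was 1.36 on the log2 scale with an interval of 1.17 to 1.55 (SE 0.08, edgeR adjusted p = 9.83e-07). This call was lost, at 0.76, once the length trend was taken out. Its coding length of 3993 bases is more than 2 times that of g10027 (1587 bases) and of g10029 (1521 bases).

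Both GH13 genes that were not called lay under the fold threshold. g3965, with the domain GH13_5, is annotated as a glucan 1,4-α-maltohexaosidase, an amylase that releases short maltose chains. It had 19.7, 14.9 and 18.8 normalized CPM in T0 and 25.0, 24.0 and 22.3 in BIN. The BIN libraries lay above the T0 libraries by a small margin, with a log2 fold change of 0.42, an interval of 0.13 to 0.70 and an edgeR adjusted p of 0.0141. g358, with the domain GH13_22, is described by the study as an α-amylase. It is the longest of the 9 genes, with a coding length of 7104 bases, against 1587 for g10027 and 1521 for g10029. Its domain is another subfamily than their GH13_1, and its activity is not settled by the sources used here. Its levels were 354, 345 and 338 normalized CPM in T0 and 681, 664 and 575 in BIN, and the groups were apart by far more than their spread. The log2 fold change was 0.89 with an interval of 0.66 to 1.12 (SE 0.10, edgeR adjusted p = 4.89e-05). Its call depended on the scaling, since it was called higher with library size alone, at 1.03, and on log2(TPM + 1) values, at 1.30, and was 0.06 with the trend on gene length removed.

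**Figure D2:**
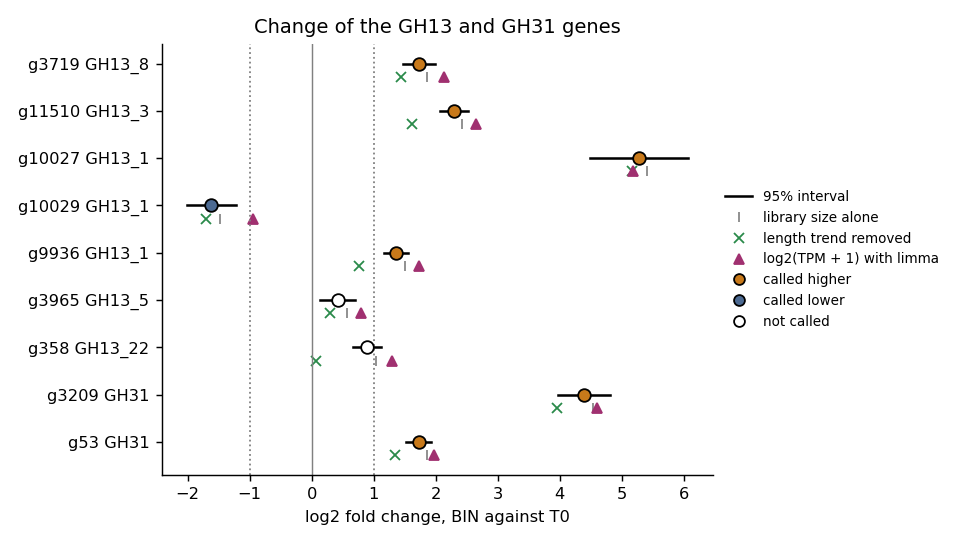
Log2 fold change of each GH13 and GH31 gene, BIN against T0, from the edgeR fit with its 95% interval, and below each the same value without TMM factors (library size alone), after removal of a gene length trend and on log2(TPM + 1). Dotted lines mark the fold threshold of 1, which g358 crosses from 0.89 to 1.03 with library size alone and g9936 from 1.36 to 0.76 with the length trend removed.

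Of the GH31 genes, the α-glucosidase g3209 had 24.2, 19.7 and 17.9 normalized CPM in T0 and 453, 336 and 496 in BIN. BIN replicate 2 was the lowest of the bagasse libraries for this gene and was still far above T0. The log2 fold change was 4.39, or 21.0-fold, with an interval of 3.97 to 4.81 (SE 0.18, edgeR adjusted p = 1.41e-07). The α-xylosidase g53 had 15.5, 17.1 and 15.3 normalized CPM in T0 and 51.2, 52.1 and 55.4 in BIN. Its libraries were the most even of the set in BIN, and the log2 fold change was 1.73 with an interval of 1.53 to 1.93 (SE 0.09, edgeR adjusted p = 2.86e-07). In TPM, g3209 stood at 1.39, 1.03 and 1.04 times g53 in T0 and at 7.90, 5.77 and 8.01 times in BIN, so that the pair was nearly level before and far apart after.

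The other GH31 genes of the gene table were not called in the edgeR test. g4624, annotated as an α-glucosidase, had a log2 fold change of 0.70 (SE 0.10, edgeR adjusted p = 0.000167), with a level of 49.9 ± 2.82 before and 80.8 ± 9.11 normalized CPM after the bagasse (SD, n = 3). It was called higher on log2(TPM + 1) values, at 1.07, and was at 0.23 after removal of the length trend. g5582, annotated as a glucan 1,3-α-glucosidase, the activity that trims glucose from N-glycans in the endoplasmic reticulum, had 108 ± 1.79 and 96.7 ± 5.93 (SD, n = 3), a log2 fold change of -0.15 (edgeR adjusted p = 0.0879) whose sign turned on log2(TPM + 1) values, at 0.27. The TPM of g3209 was 0.526, 0.403 and 0.410 times that of g4624 in T0 and 6.60, 4.72 and 5.88 times in BIN. The order of the pair was thus reversed between the groups.

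Summed over the 9 genes, TPM were 119.7, 150.0 and 123.9 in T0 replicates 1 to 3 and 743, 692 and 691 in BIN replicates 1 to 3. The means were 131 ± 16.4 and 709 ± 29.8 (SD, n = 3), a ratio of 5.40. In normalized CPM, which are not divided by length, the log2 ratio of the sums was 1.73, against 2.43 in TPM. On log2(TPM + 1) values a typical gene was itself higher in BIN, at 0.40 (median over the 10015 genes), beside -0.0038 in the main fit. The ratio of 5.40 therefore includes a shift that genes in general had on the TPM scale, and its share was not tested. The sum also holds g3209 and g53, which were taken from genes already called. The composition of the sum shifted as well. In T0, g358 made up 28.8% ± 1.43 and g3719 27.1% ± 2.77 of it (SD, n = 3), and the next gene, g11510, 11.7% ± 0.849. In BIN, g3209 made up 23.7% ± 4.25, g3719 22.4% ± 1.44, g11510 14.3% ± 1.34, g10027 13.5% ± 1.98 and g358 13.3% ± 1.13 (SD, n = 3). The last 3 of these differed by less than the spread between libraries, as did g3209 and g3719, which led in 2 and 1 of the BIN libraries. The share of g10029 went from 5.14% ± 0.888 to 0.422% ± 0.0537, and that of g53 stayed between 3.00% and 4.04% in all 6 libraries.

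**Figure D3:**
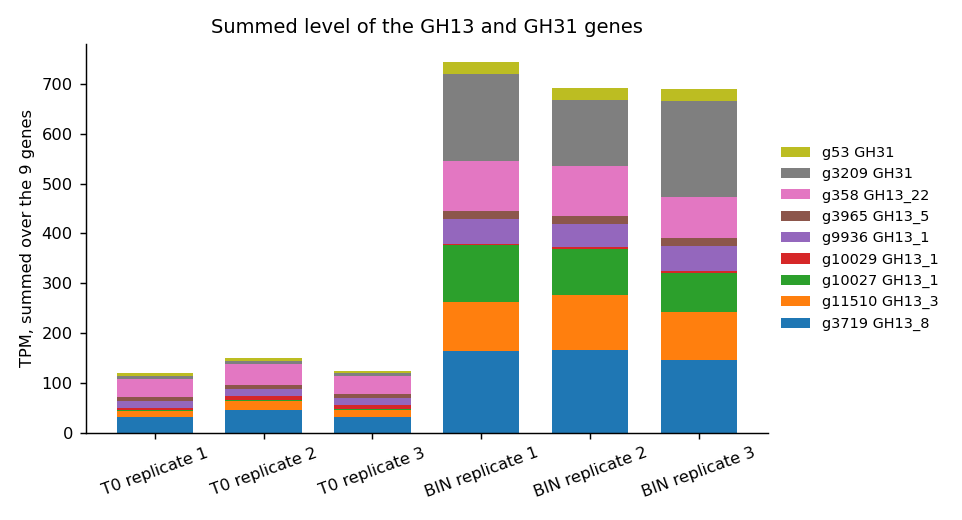
Summed TPM of the 9 GH13 and GH31 genes in each library, stacked by gene. The 3 T0 bars reach 119.7 to 150.0 TPM and the 3 BIN bars 691 to 743, where g3209, g10027 and g11510 take a larger share and g358 a smaller one.

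The order of the genes by TPM was much the same in the libraries of a group. In T0, g358 and g3719 came first, in an order that changed in replicate 2, followed by g11510 and g9936 at 15.3 ± 2.35 and 14.1 ± 0.793 TPM (SD, n = 3), which did not differ beyond their spread. Below them stood g3965 at 8.57 ± 0.566, g10029 at 6.78 ± 1.64, g3209 at 5.95 ± 0.831 and g53 at 5.20 ± 0.750, whose ranges overlapped from each to the next, and g10027 came last at 1.81 ± 1.17 TPM. In BIN the last places were the same in all libraries, with g9936 at 48.8 ± 2.39, g53 at 23.2 ± 0.883, g3965 at 15.6 ± 0.961 and g10029 at 2.98 ± 0.272 TPM (SD, n = 3). T0 replicate 2 was the highest T0 library in TPM for 6 of the 9 genes. The share over all genes was not taken, so nothing about the set is read from this.

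A list of 16 further genes for α-glucan and trehalose metabolism, chosen by annotation in the study's gene table, held 6 higher and 3 lower genes, and its median on the log2 scale was 0.74, beside the 11.3% and 14.5% of all genes called in these directions. The enzymes of starch and of trehalose each held genes that moved in opposite directions. Of the GH15 genes, g980, a glucoamylase with the starch-binding module CBM20, was lower, at 214.5, 246 and 286 normalized CPM in T0 and 66.95, 70.2 and 80.3 in BIN (log2 fold change -1.78, SE 0.12, edgeR adjusted p = 1.61e-06). The other, g10741, was higher, at 42.7, 36.4 and 35.7 in T0 and 93.2, 81.4 and 83.7 in BIN (log2 fold change 1.17, SE 0.10, edgeR adjusted p = 5.37e-06). The call of g10741 was lost with glmTreat, which tests against the fold threshold (adjusted p = 0.0802), and after removal of the length trend, at 0.82. g980 remained the more abundant of the pair in TPM in each library, with g10741 at 0.108 ± 0.0261 times its level in T0 and 0.822 ± 0.122 times in BIN (SD, n = 3).

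Of the GH37 trehalases, which split the storage sugar trehalose into glucose, g11208 was higher, at 1.59 on the log2 scale (SE 0.07, edgeR adjusted p = 1.62e-07), and g10264 was lower, with -1.60 (SE 0.12, edgeR adjusted p = 3.94e-06). In TPM, g11208 stood at 0.140 ± 0.0199 times g10264 in T0 and at 1.25 ± 0.0491 times in BIN (SD, n = 3). All 3 GT20 genes, of the family of trehalose-phosphate synthases, were higher, with log2 fold changes of 1.76 for g8194, 1.56 for g3998 and 1.08 for g9514. g9514 was not called with glmTreat or with the length trend removed, at 0.61.

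The GH71 genes, of the family of α-1,3-glucanases, which act on a glucan of fungal walls, were divided. g1405 was lower, at 385, 264 and 336 normalized CPM in T0 and 57.8, 56.0 and 47.9 in BIN, with a log2 fold change of -2.61 (SE 0.15, edgeR adjusted p = 7.14e-07). g11270 was higher at a low level, from 3.08 ± 0.554 to 8.09 ± 1.60 (SD, n = 3), with a log2 fold change of 1.42 (SE 0.20, edgeR adjusted p = 0.000193), and was not called with glmTreat. g8284 and g10778 were not called, at -0.76 and 0.01, although g8284 was called lower after removal of the length trend, at -1.03. The single CBM21 gene, g9150, had a log2 fold change of 0.73 and was not called either, except on the TPM scales, at 1.16 on log2(TPM + 1) values.

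**Figure D4:**
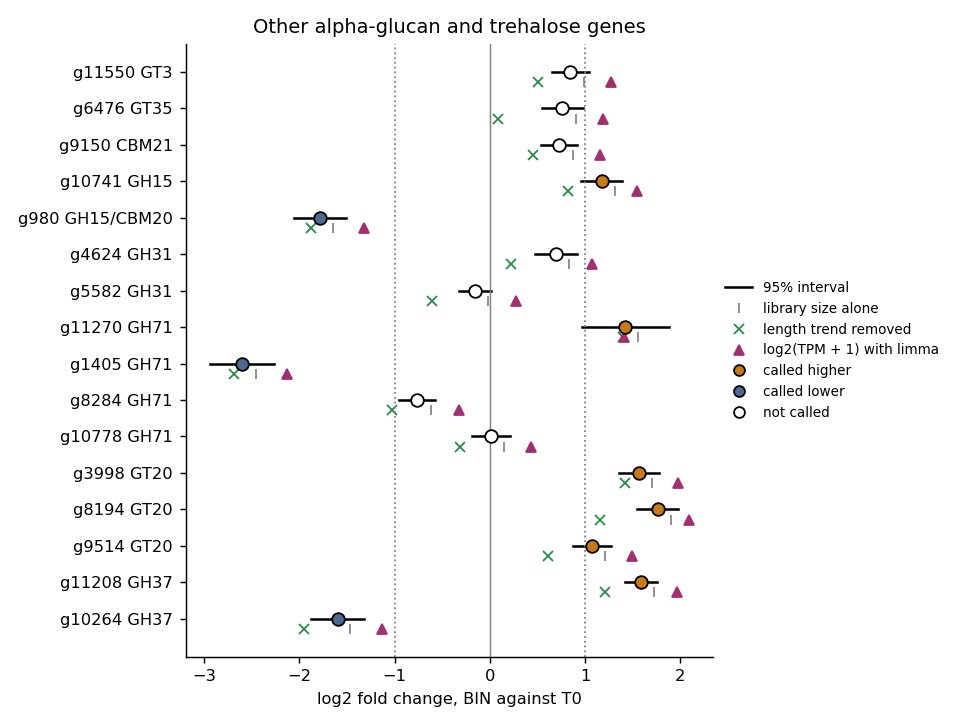
Log2 fold change, BIN against T0, of 16 further genes for α-glucan and trehalose metabolism, with the 95% interval of the edgeR fit and the values of the other scalings below each. The GH15 and GH37 families each show 1 gene above 1 and 1 below -1, and the 3 GT20 genes lie between 1.08 and 1.76.

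The genes with the nearest numbers were read for each of the 9 genes, up to 5 numbers on either side. Whether gene numbers follow the order along the scaffolds is not given in the sources used here, and no positions are given. Of 76 such genes among the tested ones, 12 were called higher and 9 lower, beside 11.3% and 14.5% of all genes, and nothing is read from the difference. The windows of g3209 and g3965 each held 4 higher genes and 1 lower gene of 10, while that of g53 held 0 higher and 3 lower of 10 and that of g9936 0 higher and 2 lower of 7. Around g10027, 9 genes were measured, and beside g10029 only g10024 was called, with a level of 20.2 ± 2.18 in T0 and 65.5 ± 4.45 normalized CPM in BIN (SD, n = 3) and 1.69 on the log2 scale. The gene between the pair, g10028, was at -0.65 and was not called. The window of g10029 also held g10033, which was lower, at -3.68 (SE 0.41), with T0 libraries that spread from 125.6 to 317 normalized CPM.

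g3719 lies 3 numbers from the CE4 gene g3716, of a family of polysaccharide deacetylases, which stood at 1.99 ± 0.0758 normalized CPM in T0 and at 8995 ± 763 in BIN (SD, n = 3). The genes between them did not follow, with g3717 lower, at -1.43 (SE 0.13), and g3718 not called, at 0.73. The higher genes around g3209 were g3205, g3207, g3210 and g3214, with log2 fold changes of 1.01, 1.38, 1.52 and 1.64, and g3212 was lower, at -1.19. g3209 itself was at 4.39. Next to g3965, which was not called, stood g3966 with a log2 fold change of 6.57 (SE 0.22, edgeR adjusted p = 4.25e-08), at 8.76 ± 2.23 normalized CPM before and 833 ± 116 after (SD, n = 3), a gene named here after its value was seen.

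**Figure D5:**
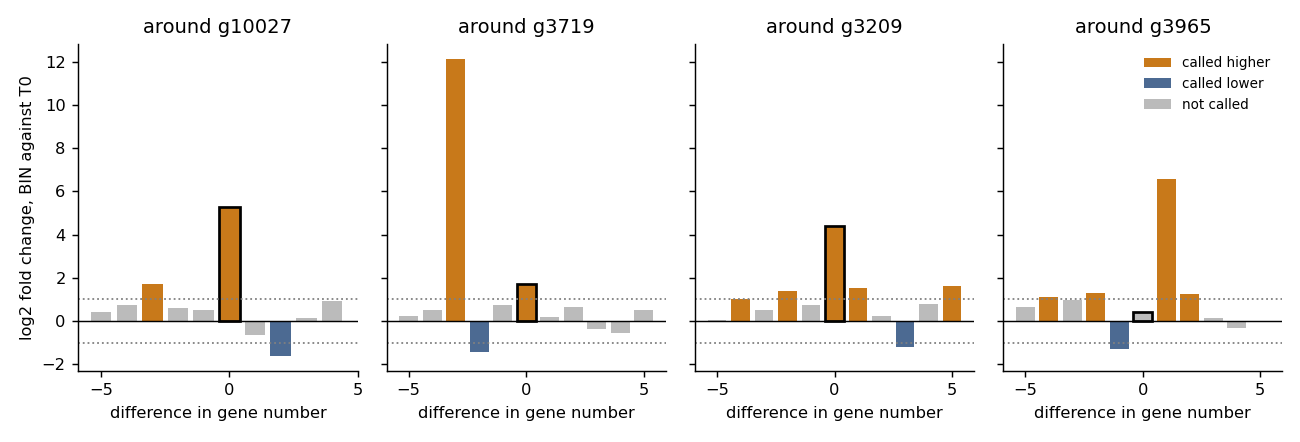
Log2 fold change, BIN against T0, of the tested genes up to 5 gene numbers away from g10027, g3719, g3209 and g3965, each of which is outlined at 0. g10029 stands 2 numbers above g10027 at -1.62, g3716 stands 3 below g3719 at 12.14 and g3966 stands next to g3965 at 6.57, while most other bars lie within the dotted lines at the threshold.

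Likeness of pattern was measured as the Euclidean distance between log2 normalized CPM over the 6 libraries, each gene centred on its own mean. For g10027 the nearest genes were g9558 at a distance of 0.582, g5567 at 0.959 and g6340 at 1.11. The study lists g9558 with a lysophospholipase domain and g6340 as a glucose transporter. Their log2 fold changes were 5.27, 5.42 and 5.22. For g3209 the nearest genes were g9167 at 0.288, g10408 at 0.477 and g7553 at 0.516, with log2 fold changes of 4.28, 4.08 and 4.15. With 3 libraries in each of 2 groups, these distances mostly reflect the size of the difference between the groups.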

How the data were processed

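The study measured mRNA of 3 T0 and 3 BIN cultures by Illumina sequencing. Reads were filtered with Trimmomatic 0.32, rRNA was removed with SortMeRNA, and reads were mapped with TopHat2 to the study's own assembly. The program that counted reads, and its handling of strand and of shared reads, are not given in the sources used here. The authors deposited raw counts per predicted gene, without normalization, and TPM values. The deposited TPM were found to be these counts divided by 1 whole-number length per gene and scaled to 1000000 in each library. 9942 of the 10015 lengths are multiples of 3, so they are called coding lengths. All columns matched samples by name.

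The main test was edgeR 4.0.16 (R 4.3.3) on the counts with TMM, filterByExpr (which kept all 10015 genes), glmQLFit with robust estimation and glmQLFTest, with Benjamini-Hochberg adjustment over all genes. SE is the size of the log2 fold change over the square root of F, and intervals are 95%. The alternatives were RLE factors, library size alone, no filter, a mean of at least 1 TPM, DESeq2 1.42.0, unadjusted p, glmTreat, a replicate block, each library left out, limma 3.58.1 on log2(TPM + 1) and log2(TPM + 0.1), and a lowess trend (span 0.3) on log2 length removed from each library. The scripts were tested on simulated counts.

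Same-numbered T0 and BIN libraries did not deviate together, and no label says that a number marks a shared culture, so samples were not paired. The genes, lists and alternatives were chosen with earlier results of these data known. Named were the 9 genes, the called genes of the 16 further ones and its GT3 and GT35 genes, called genes near g10027, g10029, g3719 and g3209 by number, and the 3 genes nearest in pattern to g10027 and g3209. The remaining genes of the 16 were named after their values were seen. Predicted functions and signal peptides come from the study's supplementary tables, and none of their values was used.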

Additional observations from a re-analysis of the deposited data

How the results depend on the processing

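The calls of g3719, g11510, g10027, g3965, g3209 and g53 were the same in all 17 alternatives, and those of the other 3 genes changed as given in the report, with g358 also called on log2(TPM + 0.1) values, at 1.32. Over the 9 genes the count of higher genes ranged from 5 to 7, and that of lower genes was 0 on log2(TPM + 1) values and 1 in all other alternatives. The summed level of the 9 genes had a log2 ratio of 1.73 in TMM-normalized CPM and of 2.37 to 2.54 with each library left out. Of the 16 further genes, 3 were higher with glmTreat and 10 on both TPM scales, and with the length trend removed 4 were higher and 4 lower. g5582 turned to 0.27 and 0.28 on the TPM scales with 1 and 0.1 added, and g10778, which was not called, to -0.32 with the length trend removed, -0.01 without T0 replicate 1, -0.02 without T0 replicate 3 and -0.0575 without BIN replicate 3, in a range up to 0.062 over the libraries left out. Over all genes, 737 were higher and 916 lower with glmTreat, 2136 and 730 on log2(TPM + 1) values and 2409 and 769 on log2(TPM + 0.1) values, where the median of all genes was 0.40 and 0.43. With library size alone the counts were 1439 and 1185 at a median of 0.13, so that the split of higher against lower turned. The causes were not tested. The replicate block called 1146 genes higher and 1441 lower and changed no call among the 9 genes or the 16 further ones; the correlation of deviations between same-numbered libraries was 0.03, 0.01 and -0.10 for numbers 1, 2 and 3.

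Depth limits g10027 in T0 and g10029 in BIN, where single libraries held 17 to 83 and 48 to 66 counts. Every gene of the tables had at least 10 counts in every library, and all 7 GH13 and 4 GH31 genes listed by the study were among them.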
